A study of Mus musculus with 9 samples.

Results

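Rab GTPases are the small GTP-binding proteins that direct vesicles between the membranes of a cell, and their genes were described in splenic dendritic cells (DCs) of healthy and leukemic mice. The genes were chosen by name: every protein_coding gene whose symbol is Rab followed by a number and letters, which gave 69 of the 54532 listed genes. Of these, 59 encode Rab GTPases. The other 10 carry a Rab name but encode partners of Rabs (the Rab11 effectors Rab11fip1 to Rab11fip5, the GTPase activating pair Rab3gap1 and Rab3gap2, the exchange factors Rab3il1 and Rab3ip, and Rab5if), so they are kept apart below.

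Each Rab switches between a GDP-bound form, held in the cytosol by a GDP dissociation inhibitor (GDI), and a GTP-bound form that sits on its own membrane through a lipid tail. Exchange factors load GTP, GTPase activating proteins end the active state, and effectors such as tethers and motor adaptors are recruited in between. In DCs, Rabs of early endosomes, late endosomes, lysosomes, lysosome-related organelles and recycling endosomes govern the uptake of antigen, its delivery to processing compartments and the traffic of MHC molecules to the surface.

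Bulk RNA of mouse spleen DCs was sequenced in 3 groups of 3 samples, called N-mDCs, T-DCs and T-mDCs. N-mDCs were mature conventional DCs (cDCs) of healthy mice, and T-mDCs were those of mice at a late stage of T cell acute lymphoblastic leukemia (T-ALL). T-DCs were CD11c+MHCIIlo cells of such leukemic mice, so low MHCII defined the group and is not a result. The leukemia was a transplant of GFP+ cells made by a retrovirus that carries the intracellular domain of Notch1, given without irradiation to C57BL/6J or CD45.1 recipients, and the mice were young females. The number of animals behind a sample is not given in the sources used here, so p-values measure only the spread between these samples, which may be technical. Between 15360815 and 18440913 reads lay on genes in each sample. The unit was FPKM, which divides a gene's reads by its length and by a size factor of the library and so allows levels of different genes to be compared per length.

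The libraries differed in RNA of other cells, and the T-DC libraries most. Summed over 12 red cell genes, FPKM was 619, 59053 and 43400.0 in T-DC samples 1 to 3, against 100.1, 5368 and 488 in N-mDCs and 184, 23.0 and 15.6 in T-mDCs. All 12 were higher in T-DCs than in T-mDCs by the test used below, and 5 were higher than in N-mDCs. The sum of 10 neutrophil genes was 13.9, 4415 and 1555 in T-DCs, 64.2, 431 and 709 in N-mDCs, and 5.23, 16.1 and 14.8 in T-mDCs. The sum of 10 macrophage genes was 3674, 1389 and 872 in T-DCs, 1804, 3689 and 2174 in N-mDCs, and 1605, 595 and 590.0 in T-mDCs, and 0 of the 10 passed in either comparison. All 6 natural killer cell genes were lower than in N-mDCs both in T-DCs and in T-mDCs, where N-mDC samples summed to between 36.9 and 110.2 FPKM, T-DC samples to between 0.935 and 14.7 and T-mDC samples to between 1.19 and 2.71. Of 6 tested B cell genes 5 were lower in T-DCs compared with N-mDCs, and the sums over all 7 listed were 234 to 309 in N-mDCs and 32.5 to 95.2 in T-DCs. Of 7 tested T cell genes 2 were lower, with sums over all 9 listed of 96.6 to 117 in N-mDCs and 13.1 to 31.2 in T-DCs, and of 5 genes of plasmacytoid DCs 2 were lower. The part of these cells in the calls below was not tested. The sum of 10 cDC genes was 716, 346 and 192 in T-DCs and between 719 and 906 in the other samples. Of these cDC genes, 7 were lower in T-DCs than in the healthy group and 8 were lower than in T-mDCs, and of 11 genes of mature DCs 10 were lower in each comparison. The mature DC list holds the MHCII genes H2-Aa, H2-Ab1 and H2-Eb1, with Cd74 and Ciita. Low MHCII defined the T-DCs, so this count is no independent result. No gene of these lists was at 0 in every sample. In bulk RNA, fewer cells of a type and less RNA per cell cannot be told apart. T-mDC samples 2 and 3 were the most alike pair (chi-square per gene 1.80, where counting noise gives about 1 and the other pairs within groups gave 5.45 or more), and they were kept as separate samples.

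Most Rab mRNAs were at similar levels in the 3 groups. The summed FPKM of the 59 GTPases was 1030, 971 and 946 in N-mDCs, 1273, 1042 and 889 in T-DCs, and 1073, 1059 and 1043 in T-mDCs. The T-DC samples lay on both sides of all others. Of the 69 genes, 54 reached 1 FPKM in at least 3 of the 9 samples and were tested (44 GTPases and all 10 partners). The other 15 were below that level, the highest at 1.25 FPKM in any sample, and Rab3c, a Rab of regulated exocytosis, was listed at 0 throughout.

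By a limma fit of log2(FPKM + 1) across all 12746 tested genes, 11 of the 54 tested Rab genes differed among the groups, where 18.0% of all tested genes did. T-DCs expressed higher levels of Rab10 and Rab18 and lower levels of Rab7b, Rab30, Rab37, Rab6b, Rab11fip1, Rab11fip3 and Rab11fip4 than N-mDCs, at an adjusted p under 0.05. These 9 genes are 16.7% of the tested Rab genes, near the 16.4% of all tested genes (6.10% higher and 10.3% lower), so their number is not a result about the family. Against T-mDCs, T-DCs expressed higher levels of Rab18, Rab44 and Rab3il1 and lower levels of Rab7b, Rab30, Rab37, Rab26, Rab21, Rab43, Rab11fip3 and Rab11fip4. The last set includes Rab26, which entered the test through its level in T-mDCs. These 11 genes are 20.4% of the tested Rab genes, beside 14.2% of all tested genes (5.44% higher and 8.79% lower). Both comparisons use the same T-DC samples. Rab7b, Rab30, Rab37, Rab11fip3 and Rab11fip4 were lower in both (5 of 54, beside 5.59% of all tested genes) and Rab18 was higher in both (1 of 54, beside 2.86%). Limma voom on whole reads split the calls as 1 higher and 10 lower against N-mDCs and 2 higher and 11 lower against T-mDCs, and quantile normalization gave 0 higher and 7 lower against N-mDCs.

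The differences were small for most of the family. Between T-DCs and N-mDCs, 30 of 54 Rab genes lay within 0.5 and 46 within 1 on the log2 scale. Between T-DCs and T-mDCs, 34 lay within 0.5 and 44 within 1. The median difference was -0.03 in both comparisons, beside 0.05 and 0.07 over all tested genes. The groups' samples did not overlap for 20 genes (37%) against N-mDCs and 22 genes (40.7%) against T-mDCs, where the shares over all tested genes were 32.4% and 34.9%. With 3 samples a group, an exact permutation test cannot go below p = 0.1.

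**Figure D1:**
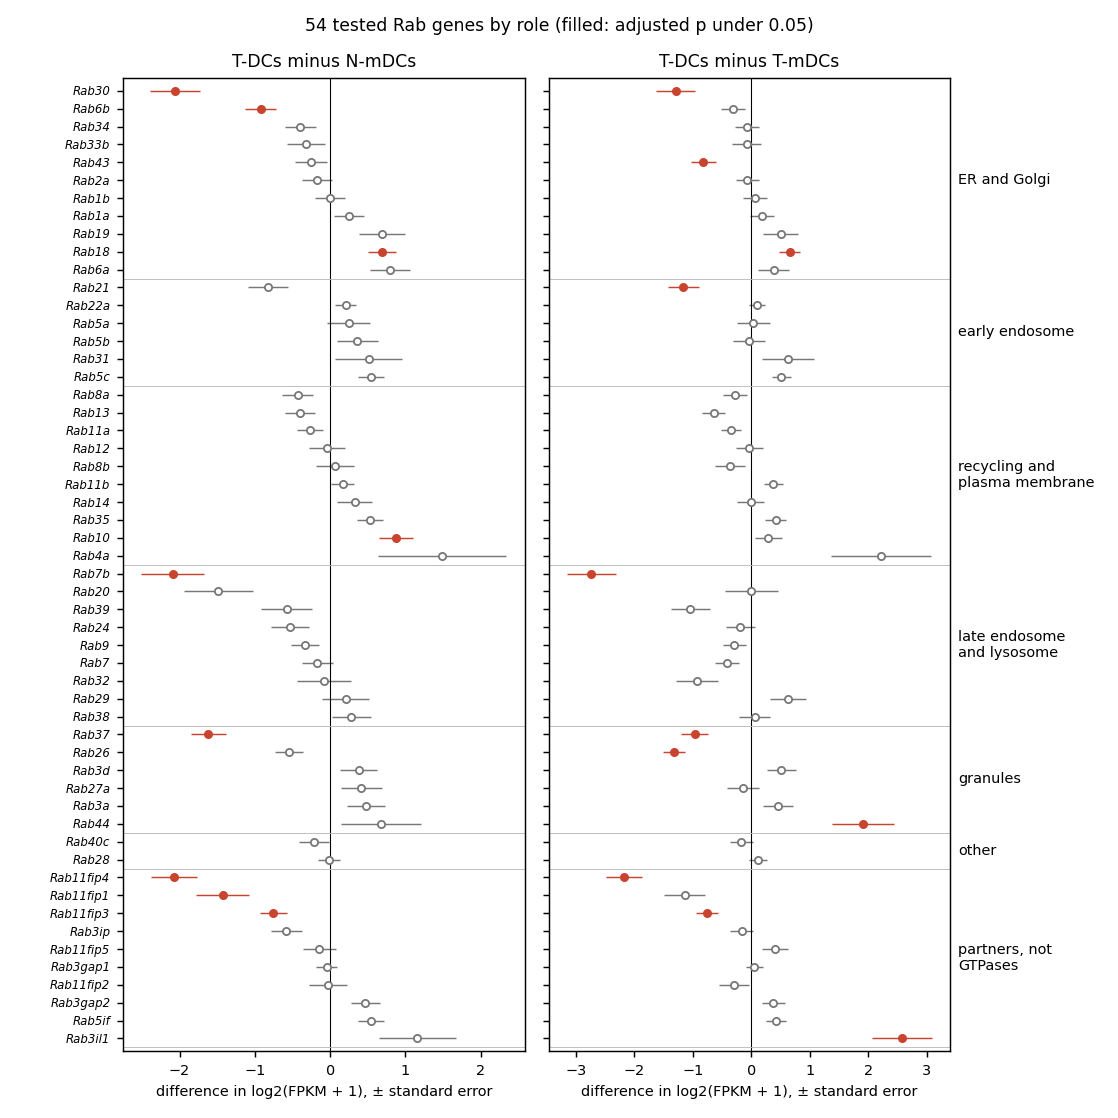
Difference in log2(FPKM + 1) between T-DCs and N-mDCs (left) and between T-DCs and T-mDCs (right) for the 54 tested Rab genes, ordered by role; points are group differences, bars are standard errors, and filled points passed the test. Most points lie near 0, and the filled points are spread over the secretory, endosomal, granule and partner genes, with Rab7b, Rab30 and Rab11fip4 among the lowest on both sides.

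No Rab gene was called between T-mDCs and N-mDCs in the fit of the 3 groups. Limma called 0 of the 54, where it called 2.21% of all tested genes (0.690% higher and 1.52% lower), 11 of the 54 had an unadjusted p under 0.05, and limma voom on whole reads also called 0. The groups' samples did not overlap for 20 Rab genes (37%), beside 35.0% of all tested genes. With only those groups in the fit, 1 Rab gene passed in each direction, where 6.67% of all tested genes passed. Without T-DC sample 1, which sets part of the common spread, 2 were higher and 1 lower, where 8.02% of all tested genes passed.

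The 3 Rab genes with the highest levels act in early endosomes, late endosomes and transport from the endoplasmic reticulum (ER), and the next 2 act in traffic to the plasma membrane. Averaged over the groups, Rab5c led with 126 FPKM, followed by Rab7 with 106, Rab1b with 86.0, Rab10 with 69.8 and Rab8b with 51.4. Their share of the GTPases' FPKM was 39.6% to 40.8% for N-mDCs, 43.6% to 45.2% for T-DCs and 41.3% to 44.1% for T-mDCs. Neighbours in this order were not separated beyond their spread in every group: in N-mDCs, Rab5c was at 109 ± 8.08 and Rab7 at 103 ± 8.85 FPKM (SD, n = 3), while in T-DCs they were at 159 ± 14.2 and 92.9 ± 24.4.

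Among the late endosome and lysosome Rabs, Rab7b was lower in T-DCs in both comparisons. Rab7b (chromosome 1, 131688695 to 131715439, mm10) carries receptors from late endosomes back to the Golgi and is known in macrophages for its effect on Toll-like receptor turnover. Its relative Rab7 (chromosome 6, 87999106 to 88045270) drives the fusion of late endosomes with lysosomes. The first 90 coding bases of both, which hold the GTP-binding loop, are shown because Rab7b was called and its relative was not. Capitals mark bases that the pair shares, 60 of 90:
Rab7b: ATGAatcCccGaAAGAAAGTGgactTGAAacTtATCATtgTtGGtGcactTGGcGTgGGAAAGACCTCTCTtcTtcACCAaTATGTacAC
Rab7: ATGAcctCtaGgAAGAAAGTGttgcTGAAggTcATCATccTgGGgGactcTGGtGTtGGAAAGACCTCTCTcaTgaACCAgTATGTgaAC
Over the whole coding sequence 62.5% of aligned bases were identical, and their transcripts shared 0 stretches of 50 bases, so an exact read of that length could come from only 1 of them.

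Rab7b was at 24.9, 20.5 and 17.1 FPKM in N-mDCs, 8.54, 3.85 and 1.84 in T-DCs, and 22.8, 40.1 and 38.3 in T-mDCs. All 3 T-DC samples lay below every other sample. The log2 difference was -2.09 (standard error 0.42, adjusted p = 0.0132) from N-mDCs and -2.73 (standard error 0.42, adjusted p = 0.00487) from T-mDCs. T-DC sample 1 had the lowest red cell sum of its group (619 FPKM) and the highest sum of macrophage genes (3674 FPKM). It had the highest Rab7b of its group and was still below all mature DC samples. With T-DC sample 1 alone, the differences were -1.18 (adjusted p = 0.103) and -1.82 (adjusted p = 0.0451). In this setting, here and below, T-DCs are 1 library that is assumed to vary like the other groups, so its p-values describe that assumption and no spread of T-DCs. Without N-mDC sample 1, the difference from N-mDCs had an adjusted p of 0.0533.

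Rab7 itself was at 113, 99.0 and 96.3 FPKM in N-mDCs, 120.4, 84.2 and 74.0 in T-DCs, and 127, 120.2 and 118 in T-mDCs. Its T-DC samples spanned those of N-mDCs, and the differences were -0.17 (adjusted p = 0.587) and -0.42 (adjusted p = 0.216). The log2 ratio of Rab7b to Rab7 was -4.18 ± 0.53 in T-DCs, -2.26 ± 0.15 in N-mDCs and -1.86 ± 0.50 in T-mDCs (SD, n = 3). The ratio in T-DCs did not overlap that of either group (exact permutation test, two-sided p = 0.1, the smallest possible, and 0.257 after adjustment over 18 tests of paralog pairs).

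**Figure D2:**
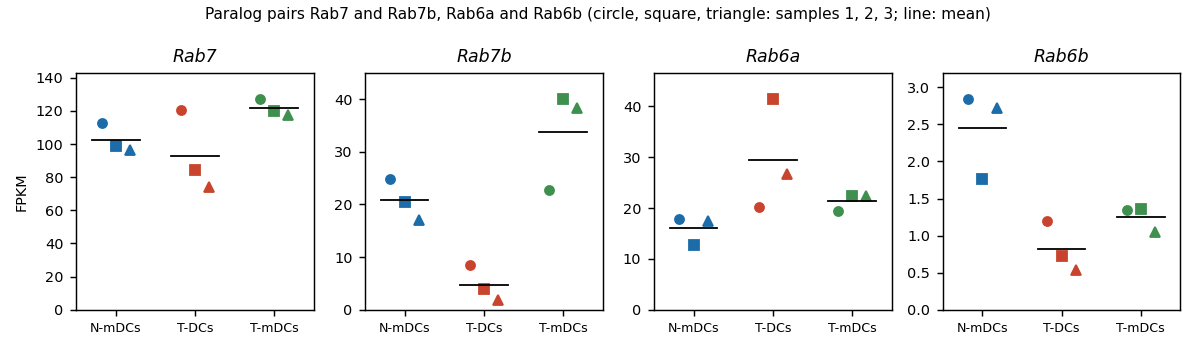
FPKM of the paralogs Rab7 and Rab7b and of Rab6a and Rab6b in each sample by group (circle, square and triangle for samples 1, 2 and 3; line at the group mean). Rab7b was between 1.84 and 8.54 FPKM in T-DCs and Rab7 between 74.0 and 120.4, and Rab6b was lowest in T-DCs while Rab6a was highest in T-DC sample 2.

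The other late endosome and lysosome Rabs did not pass the test in either comparison. So 1 of the 9 tested was called in each (11.1%, beside 16.4% and 14.2% of all tested genes). Rab20, a Rab of maturing phagosomes, was at 33.5, 59.5 and 44.5 FPKM in N-mDCs, 30.8, 15.2 and 7.43 in T-DCs, and 21.0, 12.5 and 13.7 in T-mDCs. Every sample of both leukemic groups was below every N-mDC sample, with log2 differences of -1.48 for T-DCs (adjusted p = 0.0571) and -1.48 for T-mDCs (adjusted p = 0.145). T-DCs and T-mDCs overlapped (0.00, adjusted p = 1). Rab32, which builds lysosome-related organelles, was at 37.2, 31.9 and 29.4 FPKM in N-mDCs, 55.4, 30.3 and 17.3 in T-DCs, and 56.6, 59.8 and 62.9 in T-mDCs. T-mDCs held the 3 highest values, and the difference of T-DCs from them was -0.93 (adjusted p = 0.117).

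Rab38, the close relative of Rab32, was at 6.37, 5.79 and 5.69 FPKM in N-mDCs, 9.10, 4.38 and 10.1 in T-DCs, and 7.12, 6.76 and 7.48 in T-mDCs. Its T-DC samples lay above and below the others (log2 differences 0.28 and 0.06, adjusted p = 0.471 and 0.904). Rab39, a Rab of late endosomes and phagosomes, was at 3.62, 3.80 and 4.17 FPKM in N-mDCs, 4.96, 1.63 and 1.20 in T-DCs, and 5.08, 6.18 and 5.91 in T-mDCs. T-DCs lay below T-mDCs in all samples, by -1.04 (adjusted p = 0.0711), and overlapped N-mDCs (-0.58, adjusted p = 0.245). For Rab32 and Rab39, T-DC sample 1 was above all N-mDC samples. T-DC samples 2 and 3, which held the most red cell RNA, were lower. With red cell RNA as a covariate, the differences from N-mDCs were 0.72 for Rab32 and 0.23 for Rab39. Those from T-mDCs were 0.17 and 0.071, and none of these passed. Whether that RNA accounts for the lower values was not tested. The summed FPKM of all 12 GTPases of this role was 264, 271 and 236 in N-mDCs, 290.3, 177 and 146 in T-DCs, and 277, 281 and 281 in T-mDCs.

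Among the ER and Golgi Rabs, 11 were tested and 3 were called in each comparison (27.3%, beside 16.4% and 14.2% of all tested genes). Counts this small are no result about the role. Rab30 (chromosome 7, 92741603 to 92844535) is a Rab of the Golgi. It was at 6.68, 6.99 and 6.54 FPKM in N-mDCs, 0.261, 1.75 and 0.840 in T-DCs, and 2.0, 4.73 and 4.45 in T-mDCs. The 3 groups did not overlap at all, with T-DCs lowest and N-mDCs highest. The log2 difference of T-DCs was -2.06 from N-mDCs (standard error 0.33, adjusted p = 0.00545) and -1.29 from T-mDCs (standard error 0.33, adjusted p = 0.0344). The first held in each of the 20 alternative analyses with at least 2 T-DC libraries, and with T-DC sample 1 alone the difference was -2.62. The second was lost without any 1 of N-mDC samples 1, 2 and 3, T-DC sample 3 or T-mDC samples 2 and 3 (adjusted p = 0.0534 to 0.143). The difference of T-mDCs from N-mDCs was -0.77 (adjusted p = 0.287).

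Rab18, which works on the ER and lipid droplets, was the 1 GTPase that passed the test as higher in T-DCs in both comparisons. It was at 31.6, 23.9 and 32.5 FPKM in N-mDCs, 43.9, 52.2 and 47.1 in T-DCs, and 34.5, 28.7 and 26.9 in T-mDCs. All T-DC samples were above all others. The log2 differences were 0.69 (standard error 0.19, adjusted p = 0.0367) and 0.65 (standard error 0.19, adjusted p = 0.0485). Both calls were fragile. The first was lost without any 1 of the N-mDC samples, T-DC samples 2 or 3 or T-mDC samples 2 or 3 (adjusted p = 0.0660 to 0.124), and the second without N-mDC samples 1 or 3, T-DC samples 2 or 3 or any T-mDC sample (adjusted p = 0.0516 to 0.205).

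Rab6b (chromosome 9, 103111787 to 103185276) is the form of the Golgi Rab6 that is best known from neurons, and Rab6a (chromosome 7, 100607410 to 100641268) is the widely expressed form. Their first 90 coding bases are shown because Rab6b was called and Rab6a was not. Capitals mark bases that the pair shares, 75 of 90:
Rab6b: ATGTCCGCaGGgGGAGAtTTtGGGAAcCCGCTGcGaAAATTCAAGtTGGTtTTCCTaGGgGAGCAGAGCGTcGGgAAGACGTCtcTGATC
Rab6a: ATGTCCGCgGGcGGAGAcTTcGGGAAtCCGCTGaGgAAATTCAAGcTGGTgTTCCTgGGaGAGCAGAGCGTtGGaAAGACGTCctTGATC
Over the whole coding sequence 78.4% of bases were identical, with 0 stretches of 50 bases in common between the transcripts. Rab6b was at 2.85, 1.77 and 2.73 FPKM in N-mDCs, 1.20, 0.731 and 0.537 in T-DCs, and 1.35, 1.36 and 1.05 in T-mDCs. T-DCs were below every N-mDC sample and overlapped T-mDCs. The log2 differences were -0.92 (standard error 0.20, adjusted p = 0.0192) and -0.32 (adjusted p = 0.331). The call against N-mDCs was lost without any 1 of N-mDC samples 1 or 3 or T-DC samples 2 or 3 (adjusted p = 0.0637 to 0.0719).

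Rab6a did not pass in either comparison. It was at 17.8, 12.8 and 17.5 FPKM in N-mDCs, 20.2, 41.5 and 26.7 in T-DCs, and 19.4, 22.4 and 22.4 in T-mDCs. All T-DC samples were above all N-mDC samples (0.79, adjusted p = 0.0705), and they overlapped T-mDCs (0.39, adjusted p = 0.362). The log2 ratio of Rab6b to Rab6a was -4.02 ± 0.69 in T-DCs and -2.30 ± 0.02 in N-mDCs (SD, n = 3). These ratios did not overlap (exact permutation test, two-sided p = 0.1, adjusted 0.257 over the same 18 tests), while the ratio of -3.32 ± 0.20 in T-mDCs overlapped that of T-DCs.

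Rab43, a Golgi Rab that is known to take part in cross-presentation by cDC1, was at 14.5, 8.65 and 10.7 FPKM in N-mDCs, 10.5, 9.57 and 7.41 in T-DCs, and 15.4, 17.8 and 17.3 in T-mDCs. T-DCs lay below every T-mDC sample and overlapped the N-mDC samples, with T-DC sample 3 below all of them. The log2 difference was -0.82 from T-mDCs (standard error 0.21, adjusted p = 0.0369) and -0.26 from N-mDCs (adjusted p = 0.419). The first call was lost without any 1 of N-mDC sample 3, T-DC samples 2 or 3 or any T-mDC sample (adjusted p = 0.0572 to 0.148). Rab34, a Rab of the Golgi and of lysosome positioning, was low and did not pass: 1.42, 1.59 and 1.45 FPKM in N-mDCs, 1.43, 0.866 and 0.497 in T-DCs, and 1.20, 0.868 and 0.912 in T-mDCs (log2 differences -0.39 and -0.07, adjusted p = 0.193 and 0.838). Rab1b, which acts in ER to Golgi transport, was at 80.4, 106 and 76.4 FPKM in N-mDCs, 106, 78.6 and 77.3 in T-DCs, and 87.9, 81.4 and 79.0 in T-mDCs. Its groups overlapped, with log2 differences of -0.01 and 0.06 (adjusted p = 0.987 and 0.857).

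**Figure D3:**
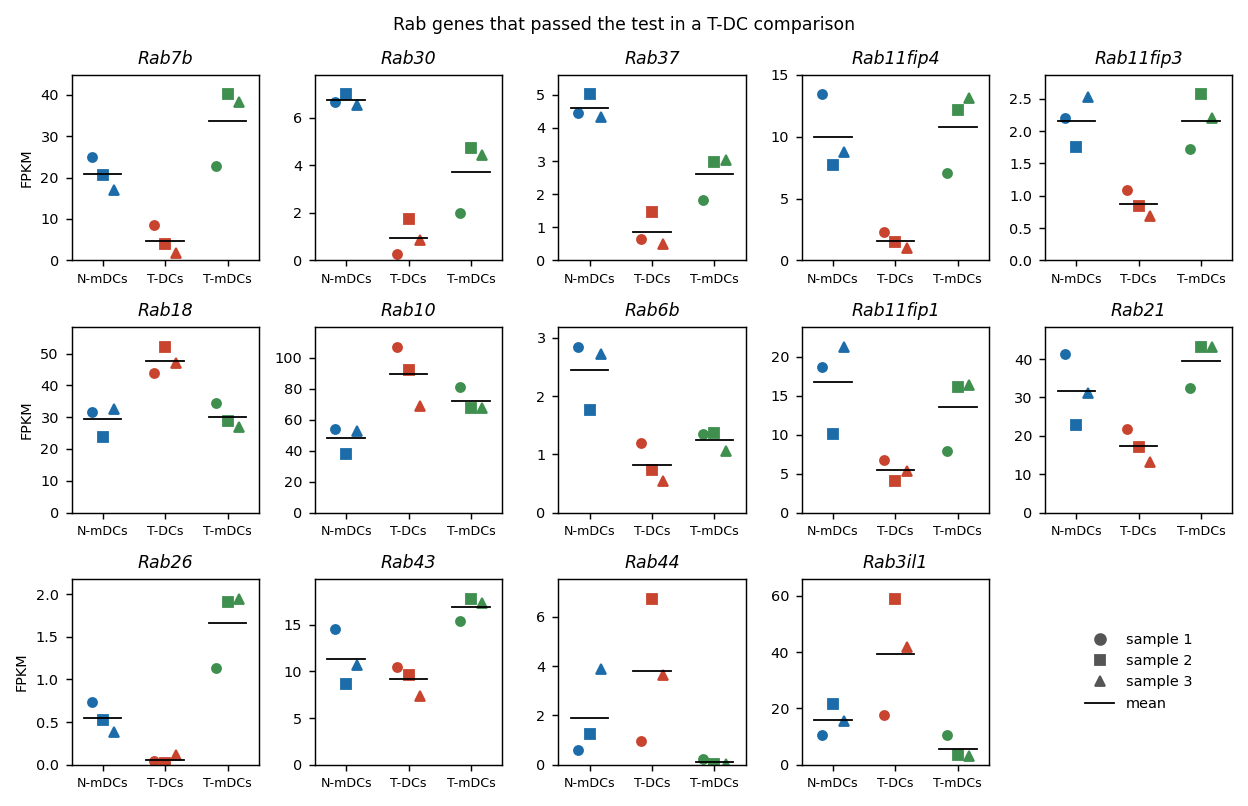
FPKM in each sample for the 14 Rab genes that passed the test in at least 1 comparison of T-DCs (circle, square and triangle for samples 1, 2 and 3; line at the group mean; each vertical axis starts at 0). T-DC samples lie below all others for Rab7b, Rab30, Rab37, Rab11fip3, Rab11fip4, Rab11fip1, Rab21 and Rab26, and above all others for Rab18.

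Of 6 tested early endosome Rabs, 0 passed against N-mDCs and 1 passed against T-mDCs (0% and 16.7%, beside 16.4% and 14.2% of all tested genes). This was Rab21 (chromosome 10, 115287084 to 115315594), which carries integrins through early endosomes. It was at 41.3, 22.9 and 31.1 FPKM in N-mDCs, 21.7, 17.0 and 13.3 in T-DCs, and 32.4, 43.2 and 43.1 in T-mDCs. T-DC samples were below all samples of both mature groups. The log2 difference was -1.16 from T-mDCs (standard error 0.26, adjusted p = 0.0233) and -0.83 from N-mDCs (standard error 0.26, adjusted p = 0.0642). The first was lost without any 1 of T-DC samples 2 or 3 or T-mDC samples 2 or 3 (adjusted p = 0.0681 to 0.107).

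Rab5c, the most abundant member and an early endosome fusion Rab, was at 116, 110.0 and 100.01 FPKM in N-mDCs, 171, 162 and 143 in T-DCs, and 124, 108 and 100.4 in T-mDCs. Every T-DC sample was above every other sample, and the log2 differences of 0.54 and 0.52 did not pass (adjusted p = 0.0595 and 0.0762). Rab5a, its relative, was at 13.8, 7.33 and 16.4 FPKM in N-mDCs, 17.2, 15.4 and 11.0 in T-DCs, and 13.6, 14.8 and 13.4 in T-mDCs, with overlapping groups (0.25 and 0.04, adjusted p = 0.563 and 0.945). The log2 ratios of Rab5a and Rab5b to Rab5c differed by -0.48 and -0.55 between T-DCs and T-mDCs, without overlap (exact permutation test, two-sided p = 0.1 each, adjusted 0.257). Rab22a, which recycles MHC class I and has been studied in cross-presentation, was at 6.87, 6.35 and 6.99 FPKM in N-mDCs, 8.33, 7.57 and 7.85 in T-DCs, and 6.94, 7.47 and 7.64 in T-mDCs (0.20 and 0.09, adjusted p = 0.317 and 0.675).

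Of 10 tested Rabs of recycling and the plasma membrane, 1 passed against N-mDCs and 0 against T-mDCs (10% and 0%, beside 16.4% and 14.2% of all tested genes). Rab10 (chromosome 12, 3247428 to 3309969) carries vesicles to the plasma membrane. It was at 54.04, 37.7 and 52.5 FPKM in N-mDCs, 107, 92.2 and 68.5 in T-DCs, and 80.9, 67.2 and 67.5 in T-mDCs. All samples of both leukemic groups were above all N-mDC samples. The log2 difference of T-DCs was 0.87 from N-mDCs (standard error 0.23, adjusted p = 0.0335) and 0.29 from T-mDCs (adjusted p = 0.422), and that of T-mDCs from N-mDCs was 0.58 (adjusted p = 0.243). The call was lost without any 1 of the N-mDC samples, T-DC sample 2 or T-mDC samples 2 or 3 (adjusted p = 0.0645 to 0.105). With T-DC sample 1 alone the difference was 1.16 (adjusted p = 0.0527). Rab10os is listed as an antisense gene. Strand is not stated for the counts, so reads in any stretch that it shares with Rab10 cannot be told apart. Rab10os was at 7.30, 8.49 and 8.23 FPKM in N-mDCs, 4.67, 4.01 and 3.19 in T-DCs, and 4.64, 6.40 and 6.49 in T-mDCs.

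Rab4a and Rab35 are named after their values were seen. Rab4a, a Rab of fast recycling from early endosomes, had the largest positive differences of a GTPase without passing the test. It was at 0.619, 0.848 and 1.32 FPKM in N-mDCs, 0.0636, 6.87 and 17.4 in T-DCs, and 0, 0.147 and 0.340 in T-mDCs. T-DC sample 1 was below all N-mDC samples, and the high values were those of T-DC samples 2 and 3, which held 59053 and 43400.0 FPKM of red cell genes. The differences were 1.49 (standard error 0.85, adjusted p = 0.240) and 2.21 (standard error 0.85, adjusted p = 0.120), and the part of red cell RNA was not tested. Rab35, a Rab of fast recycling at the plasma membrane, was at 25.7, 28.8 and 26.1 FPKM in N-mDCs, 32.6, 38.8 and 47.1 in T-DCs, and 27.3, 30.5 and 29.4 in T-mDCs. Its T-DC samples were above all others, by 0.53 and 0.42 (adjusted p = 0.0705 and 0.151).

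Rab11a, the main Rab of recycling endosomes, was at 26.8, 25.9 and 21.6 FPKM in N-mDCs, 21.3, 23.0 and 17.1 in T-DCs, and 26.0, 26.7 and 25.7 in T-mDCs. T-DCs lay below all T-mDC samples without passing the test (-0.35, adjusted p = 0.207), and overlapped N-mDCs (-0.27, adjusted p = 0.286). The log2 ratio of Rab11a to Rab11b differed by -0.43 between T-DCs and N-mDCs and by -0.73 between T-DCs and T-mDCs, without overlap (exact permutation test, two-sided p = 0.1 each, adjusted 0.257). Rab8b, which acts in traffic to the plasma membrane, was at 56.6, 32.2 and 49.3 FPKM in N-mDCs, 50.3, 54.6 and 37.2 in T-DCs, and 52.7, 63.4 and 66.1 in T-mDCs (0.06 and -0.36, adjusted p = 0.888 and 0.364).

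The granule Rabs, which act in regulated secretion, had 6 tested members. Of these, 1 passed against N-mDCs and 3 against T-mDCs, Rab26 among them (16.7% and 50%, beside 16.4% and 14.2% of all tested genes). With 6 genes, these shares are no result about the role. Rab37 (chromosome 11, 115091431 to 115162236), which acts in the release of secretory vesicles, was at 4.44, 5.01 and 4.32 FPKM in N-mDCs, 0.660, 1.45 and 0.482 in T-DCs, and 1.83, 2.98 and 3.03 in T-mDCs. As for Rab30, no groups overlapped, and T-DCs were lowest and N-mDCs highest. The log2 difference of T-DCs was -1.62 from N-mDCs (standard error 0.23, adjusted p = 0.00364) and -0.97 from T-mDCs (standard error 0.23, adjusted p = 0.0278). The first held in each of the 19 alternatives with at least 2 T-DC libraries in which the gene was tested, and with T-DC sample 1 alone the difference was -1.75. The second was lost without T-DC sample 3 or T-mDC samples 2 or 3 (adjusted p = 0.0830 to 0.123).

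Rab26 (chromosome 17, 24527241 to 24534210), a Rab of secretory granules, was at 0.740, 0.523 and 0.386 FPKM in N-mDCs, 0.0392, 0.0226 and 0.115 in T-DCs, and 1.13, 1.90 and 1.94 in T-mDCs. The 3 groups did not overlap, with T-DCs lowest and T-mDCs highest. It reached 1 FPKM in T-mDCs only and passed the filter because of that group, so its call against T-mDCs in the filtered fit is no independent evidence. Without a filter on low values, the log2 difference from T-mDCs was -1.31 (adjusted p = 0.00896). The difference from N-mDCs was -0.54 (adjusted p = 0.0774). At these levels the addition of 1 to each FPKM understates the fold.

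Rab44, a large Rab known from granulocytes and mast cells, was at 0.581, 1.24 and 3.89 FPKM in N-mDCs, 0.981, 6.73 and 3.64 in T-DCs, and 0.220, 0.0409 and 0.0429 in T-mDCs. T-DCs were above all T-mDC samples and overlapped N-mDCs (log2 differences 1.92, adjusted p = 0.0447, and 0.68, adjusted p = 0.388). Within T-DCs and within N-mDCs its samples stood in the same order as the summed neutrophil genes, at 13.9, 4415 and 1555 FPKM in T-DCs and 64.2, 431 and 709 in N-mDCs. In T-mDCs the order was the reverse, with neutrophil sums of 5.23, 16.1 and 14.8. The part of neutrophil RNA was not tested. The call was lost without any 1 of N-mDC sample 2, T-DC samples 2 or 3 or any T-mDC sample (adjusted p = 0.0664 to 0.148), and with T-DC sample 1 alone the difference was 0.85 (adjusted p = 0.402).

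Rab27a, which brings lysosome-related organelles to the plasma membrane and acts in exosome release, was at 7.68, 5.91 and 7.87 FPKM in N-mDCs, 14.9, 9.78 and 6.37 in T-DCs, and 9.71, 11.0 and 12.2 in T-mDCs. T-DCs overlapped both groups (0.41 and -0.14, adjusted p = 0.303 and 0.756). Rab3d, a Rab of regulated exocytosis, was at 3.64, 5.25 and 5.29 FPKM in N-mDCs, 7.44, 7.55 and 4.55 in T-DCs, and 5.45, 3.64 and 3.58 in T-mDCs (0.38 and 0.52, adjusted p = 0.291 and 0.190).

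The partners with Rab names were all tested, and 3 of 10 passed in each comparison (30%, beside 16.4% and 14.2% of all tested genes). With 10 genes, this share is no result about the partners. The 5 Rab11 effectors link Rab11 on recycling endosomes to motors and to the surface. Of these, 3 were lower in T-DCs than N-mDCs and 2 were lower than T-mDCs, where 10.3% and 8.79% of all tested genes were. Rab11fip4 (chromosome 11, 79591212 to 79698023), an effector that also binds Arf GTPases, was at 13.4, 7.69 and 8.77 FPKM in N-mDCs, 2.33, 1.52 and 0.963 in T-DCs, and 7.04, 12.2 and 13.2 in T-mDCs. T-DC samples were below all others, with log2 differences of -2.07 (standard error 0.30, adjusted p = 0.00387) and -2.17 (standard error 0.30, adjusted p = 0.00364). Both calls held with each library left out in turn. With T-DC sample 1 alone they were -1.68 and -1.78 (adjusted p = 0.0616 and 0.0535).

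Rab11fip3, an effector known from cell division, was at 2.20, 1.75 and 2.52 FPKM in N-mDCs, 1.09, 0.836 and 0.679 in T-DCs, and 1.72, 2.57 and 2.20 in T-mDCs. T-DCs were again below all other samples, by -0.75 (adjusted p = 0.0263) and -0.76 (adjusted p = 0.0282). The first call was lost without any 1 of N-mDC samples 1 or 3, T-DC samples 2 or 3 or T-mDC sample 3 (adjusted p = 0.0532 to 0.0881), and the second without T-DC samples 2 or 3 or T-mDC samples 2 or 3 (adjusted p = 0.0837 to 0.134). Rab11fip1, which recycles integrins and growth factor receptors, was at 18.7, 10.1 and 21.3 FPKM in N-mDCs, 6.78, 4.04 and 5.40 in T-DCs, and 7.93, 16.2 and 16.5 in T-mDCs. Its T-DC samples were the 3 lowest, with differences of -1.43 (adjusted p = 0.0281) and -1.14 (adjusted p = 0.0635). The call was lost without any 1 of N-mDC samples 1 or 3 or T-DC samples 2 or 3 (adjusted p = 0.0731 to 0.0969). Rab11fip2 (-0.03 and -0.29, adjusted p = 0.955 and 0.479) and Rab11fip5 (-0.14 and 0.40, adjusted p = 0.680 and 0.264) did not pass.

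Rab3il1 (chromosome 19, 10001669 to 10038380), an exchange factor related to Rab3ip, was at 10.4, 21.5 and 15.6 FPKM in N-mDCs, 17.6, 58.9 and 41.6 in T-DCs, and 10.4, 3.62 and 3.28 in T-mDCs. All T-DC samples were above all T-mDC samples, and they overlapped N-mDCs. The log2 difference was 2.57 from T-mDCs (standard error 0.51, adjusted p = 0.0144) and 1.16 from N-mDCs (adjusted p = 0.146). T-DC samples 2 and 3, which held 59053 and 43400.0 FPKM of red cell genes, were higher than sample 1. With sample 1 alone the difference was 1.61 (adjusted p = 0.148), and with red cell RNA as a covariate (the average of the 12 genes) it was 0.73 (adjusted p = 0.474). The call was also lost without T-DC sample 2 or T-mDC samples 2 or 3 (adjusted p = 0.0540 to 0.0703).

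A covariate for red cell RNA ended most calls, in Rab genes and in all genes. It kept 3 of the 9 calls against N-mDCs, those of Rab30 (-2.43, adjusted p = 0.0316), Rab37 (-1.70, adjusted p = 0.0382) and Rab11fip4 (-1.42, adjusted p = 0.0485), and called 3.70% of all tested genes in that comparison. Against T-mDCs it called 0 of all 12746 tested genes, so its 0 of 11 is not a result about Rab genes. In the T-mDC comparison red cell genes and groups go together, as all 12 genes of the list were called higher in T-DCs. Against N-mDCs 5 of the 12 were. None of the 20 called differences, each in its own comparison, changed its sign under any alternative.

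**Figure D4:**
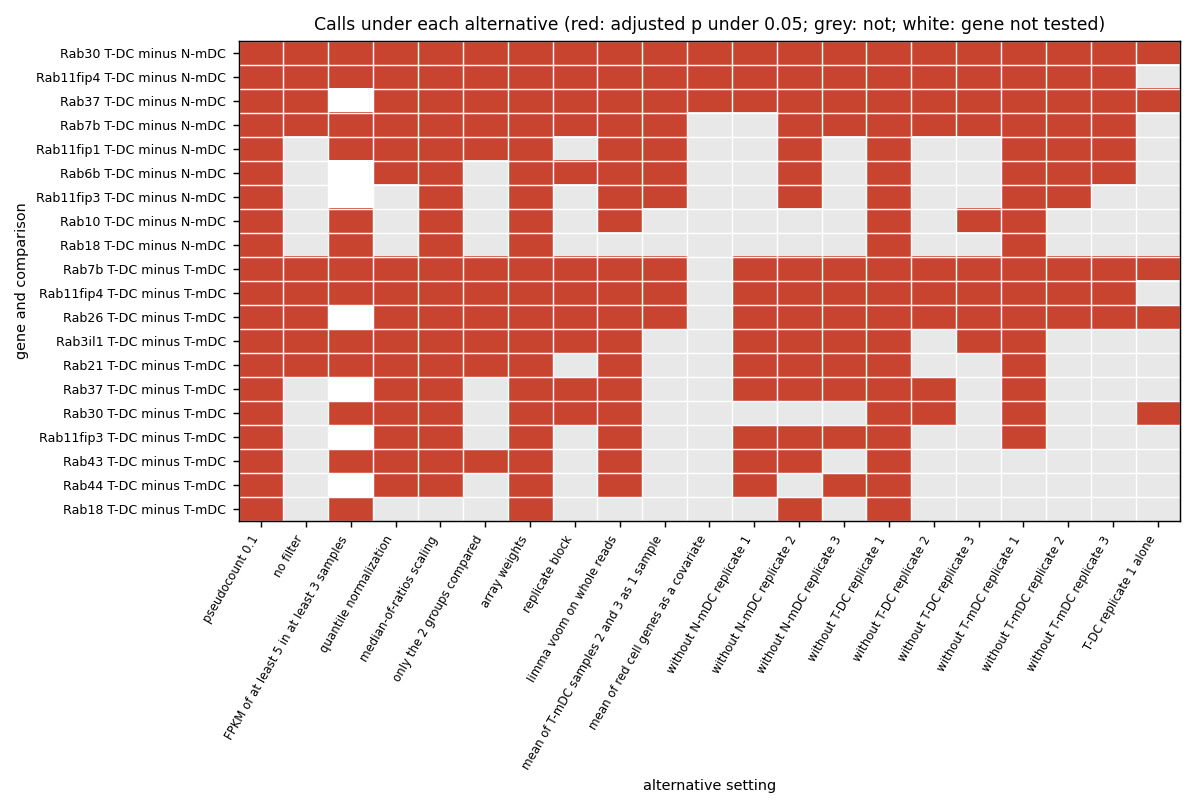
Calls of 20 gene and comparison pairs (rows) under each of 21 alternative analyses (columns); red squares passed at an adjusted p under 0.05, grey squares did not, and white squares were not tested under that filter. Rab30 and Rab37 against N-mDCs are red in every column in which they were tested, while the rows of Rab18 and Rab10 are mostly grey.

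Genes of the wider Rab machinery were taken from lists made by function. The lists were chosen with earlier results of these data known, so their shares of calls are no independent test. GTPase activating proteins had 28 tested genes of 31, of which 2 rose and 5 fell in T-DCs relative to N-mDCs, and 3 rose and 6 fell relative to T-mDCs. That is 25% and 32.1% called, beside 16.4% and 14.2% of all tested genes, and the medians were -0.30 and -0.29. Tbc1d4 (AS160), which restrains Rabs of exocytosis such as Rab10, was at 162, 97.3 and 141 FPKM in N-mDCs, 4.43, 3.27 and 1.55 in T-DCs, and 60.4, 171 and 173 in T-mDCs. T-DC samples were far below all others, with log2 differences of -5.08 (standard error 0.45, adjusted p = 0.000678) and -4.98 (standard error 0.45, adjusted p = 0.00126), and both calls held with each library left out.

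Tbc1d10c (carabin) was at 52.8, 57.1 and 44.3 FPKM in N-mDCs, 20.2, 14.6 and 12.6 in T-DCs, and 39.2, 49.6 and 45.5 in T-mDCs (-1.66 and -1.47, adjusted p = 0.00215 and 0.00392), and both calls held with each library left out. Tbc1d9 was at 121, 58.1 and 89.3 FPKM in N-mDCs, 32.9, 15.1 and 7.53 in T-DCs, and 75.3, 95.8 and 101 in T-mDCs. T-DCs were lowest for both genes. The Tbc1d9 differences were -2.38 and -2.45 (adjusted p = 0.0125 and 0.0123), lost against N-mDCs without N-mDC sample 1 (adjusted p = 0.0514) and against T-mDCs without T-mDC samples 2 or 3 (adjusted p = 0.0584 and 0.0605). Evi5, studied as a regulator of Rab11, rose: it was at 1.75, 1.76 and 3.48 FPKM in N-mDCs, 5.43, 11.6 and 9.64 in T-DCs, and 2.43, 1.123 and 1.27 in T-mDCs. The differences were 1.56 and 1.90 (adjusted p = 0.0148 and 0.00725), and the first was lost without N-mDC sample 1 or T-DC samples 2 or 3 (adjusted p = 0.0514 to 0.0584). The remaining calls, listed after their values were seen, were Tbc1d16 and Evi5l (lower) and Tbc1d10b (higher) against N-mDCs, and Tbc1d8, Tbc1d10a and Tbc1d1 (lower) and Tbc1d2b and Tbc1d10b (higher) against T-mDCs.

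Of these calls, that of Tbc1d10b against N-mDCs held with each library left out, and the other 7 did not. Tbc1d16 was lost without N-mDC samples 1 or 3, T-DC samples 2 or 3 or T-mDC samples 2 or 3 (adjusted p = 0.0541 to 0.107), and Evi5l without any 1 library other than T-DC sample 1 (adjusted p = 0.0641 to 0.142). Tbc1d8 was lost without N-mDC sample 3, T-DC samples 2 or 3 or T-mDC samples 2 or 3 (adjusted p = 0.0601 to 0.141), and Tbc1d10a without T-DC samples 2 or 3 or T-mDC samples 2 or 3 (adjusted p = 0.0630 to 0.0961). Tbc1d1 was lost without any 1 library other than N-mDC sample 2 or T-DC sample 1 (adjusted p = 0.0531 to 0.149). Tbc1d2b was lost without any N-mDC sample, T-DC sample 2 or T-mDC samples 2 or 3 (adjusted p = 0.0631 to 0.166), and Tbc1d10b against T-mDCs without N-mDC samples 1 or 3, T-DC samples 2 or 3 or T-mDC samples 2 or 3 (adjusted p = 0.0521 to 0.166). With the red cell covariate, 4 of the 16 calls of machinery genes against N-mDCs remained, those of Tbc1d4, Tbc1d10c, Dennd3 and Rabif, and 0 of the 18 against T-mDCs, as for all genes. There Tbc1d4 was at -3.79 (adjusted p = 0.121), Tbc1d10c at -1.01 (adjusted p = 0.223) and Dennd3 at -1.22 (adjusted p = 0.165).

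Exchange factors had 26 tested genes of 30. In T-DCs, 1 was higher and 3 lower than in N-mDCs, and 0 higher and 2 lower than in T-mDCs. That is 15.4% and 7.69%, beside 16.4% and 14.2% of all tested genes, and counts this small are no result about exchange factors. Dennd3, an exchange factor of Rab12, was at 28.1, 18.5 and 22.9 FPKM in N-mDCs, 5.52, 3.46 and 2.64 in T-DCs, and 15.3, 21.8 and 21.4 in T-mDCs. T-DCs were below all others, by -2.34 and -2.10 (adjusted p = 0.00151 and 0.00256), and both calls held with each library left out. Ric1, an exchange factor of Rab6, differed by -1.35 from T-mDCs (adjusted p = 0.0305) and by -0.41 from N-mDCs (adjusted p = 0.402). The Ric1 call was lost without T-DC samples 2 or 3 or T-mDC samples 2 or 3 (adjusted p = 0.0857 to 0.122).

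The Rab5 exchange factors Rinl and Gapvd1 differed from N-mDCs in opposite directions, by -0.94 (adjusted p = 0.0281) and 0.98 (adjusted p = 0.0388). The Rinl call was lost without any N-mDC sample, T-DC samples 2 or 3 or T-mDC sample 2 (adjusted p = 0.0524 to 0.0958), and the Gapvd1 call without any 1 library other than T-DC sample 1 (adjusted p = 0.0577 to 0.117). Dennd6b, named after its value was seen, was the third gene lower than in N-mDCs (-0.71, adjusted p = 0.0229), a call lost without N-mDC sample 1, T-DC samples 2 or 3 or T-mDC samples 2 or 3 (adjusted p = 0.0503 to 0.0834). Mon1b, part of the complex that activates Rab7, was the 1 exchange factor called between T-mDCs and N-mDCs (1.10, adjusted p = 0.0463) and was also named after its value was seen. The Mon1b call was lost without any 1 library other than T-DC sample 1 (adjusted p = 0.0575 to 0.207).

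All 8 genes of prenylation and membrane extraction were tested. Rabif, a chaperone of nucleotide-free Rabs, was at 5.70, 5.88 and 5.56 FPKM in N-mDCs, 12.96, 11.8 and 13.1 in T-DCs, and 7.41, 7.18 and 6.92 in T-mDCs. T-DC samples were above all others, by 1.019 and 0.74 (standard error 0.14 for both, adjusted p = 0.00262 and 0.0106). The first call held in each of the 20 alternatives with at least 2 T-DC libraries, and the second was lost without T-mDC samples 2 or 3 (adjusted p = 0.0659 and 0.0727). Gdi2, the widely expressed GDI, was at 79.9, 64.1 and 60.4 FPKM in N-mDCs, 53.4, 35.6 and 29.7 in T-DCs, and 54.6, 57.6 and 58.5 in T-mDCs. T-DCs were again below every other sample, by -0.80 (adjusted p = 0.0478) and -0.56 (adjusted p = 0.147). The Gdi2 call was lost without any 1 library other than T-DC sample 1 (adjusted p = 0.0691 to 0.1499).

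Effectors had 25 tested genes of 36, of which 0 were higher and 3 lower than in N-mDCs, and 2 higher and 3 lower than in T-mDCs. That is 12% and 20% called, beside 16.4% and 14.2% of all tested genes. Rilpl2, which binds Rabs phosphorylated by the kinase Lrrk2, was at 48.5, 110.3 and 107 FPKM in N-mDCs, 22.4, 17.5 and 12.5 in T-DCs, and 20.4, 23.8 and 23.8 in T-mDCs. Both leukemic groups were below all N-mDC samples, by -2.22 for T-DCs (adjusted p = 0.00440) and -1.83 for T-mDCs (adjusted p = 0.0329), while T-DCs and T-mDCs overlapped (-0.39, adjusted p = 0.465). The T-mDC call was lost without any 1 of N-mDC samples 2 or 3, T-DC sample 2 or any T-mDC sample (adjusted p = 0.0579 to 0.135). Lrrk2 was at 26.0, 10.3 and 18.2 FPKM in N-mDCs, 7.76, 4.63 and 2.73 in T-DCs, and 11.9, 19.7 and 18.7 in T-mDCs, with T-DCs lowest (-1.66 and -1.61, adjusted p = 0.0254 and 0.0305). The Lrrk2 calls were lost without N-mDC samples 1 or 3 or T-DC samples 2 or 3 (adjusted p = 0.0754 to 0.0885) and without N-mDC sample 3, T-DC samples 2 or 3 or T-mDC samples 2 or 3 (adjusted p = 0.0536 to 0.125).

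Optn, an autophagy receptor that binds Rab8, was at 2.30, 2.37 and 2.35 FPKM in N-mDCs, 3.02, 28.8 and 22.4 in T-DCs, and 2.68, 1.57 and 1.43 in T-mDCs. The high values were those of T-DC samples 2 and 3, the libraries with the most red cell RNA. With the red cell covariate the Optn difference from T-mDCs went from 2.31 (adjusted p = 0.0467) to -0.08 (adjusted p = 0.957). The Optn call was lost without any 1 library other than T-DC sample 1 (adjusted p = 0.0648 to 0.154). Mical1, an actin oxidase that Rabs recruit, differed from N-mDCs by -1.21 (adjusted p = 0.0438), and this call too was lost without any 1 library other than T-DC sample 1 (adjusted p = 0.0543 to 0.131). Without T-DC sample 3 the Mical1 difference was -0.79. The other called effectors, Appl1 and Rabep1 (lower) and Ocrl (higher), differed from T-mDCs and were named after their values were seen. Appl1 was lost without any 1 library other than N-mDC sample 2 or T-DC sample 1 (adjusted p = 0.0516 to 0.160), and with the red cell covariate its difference went from -1.17 to -0.083. Rabep1 was lost without N-mDC sample 1, T-DC samples 2 or 3 or any T-mDC sample (adjusted p = 0.0536 to 0.132), and Ocrl without N-mDC samples 1 or 3, T-DC samples 2 or 3 or T-mDC samples 2 or 3 (adjusted p = 0.0506 to 0.157). Of 6 tested Rab-like genes of 8, 0 passed against N-mDCs and 1 against T-mDCs (0% and 16.7%, beside 16.4% and 14.2% of all tested genes). This was Ift22 (-1.27, adjusted p = 0.0156), a call that was lost without T-DC sample 2 or T-mDC samples 2 or 3 (adjusted p = 0.0536 to 0.0683).

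**Figure D5:**
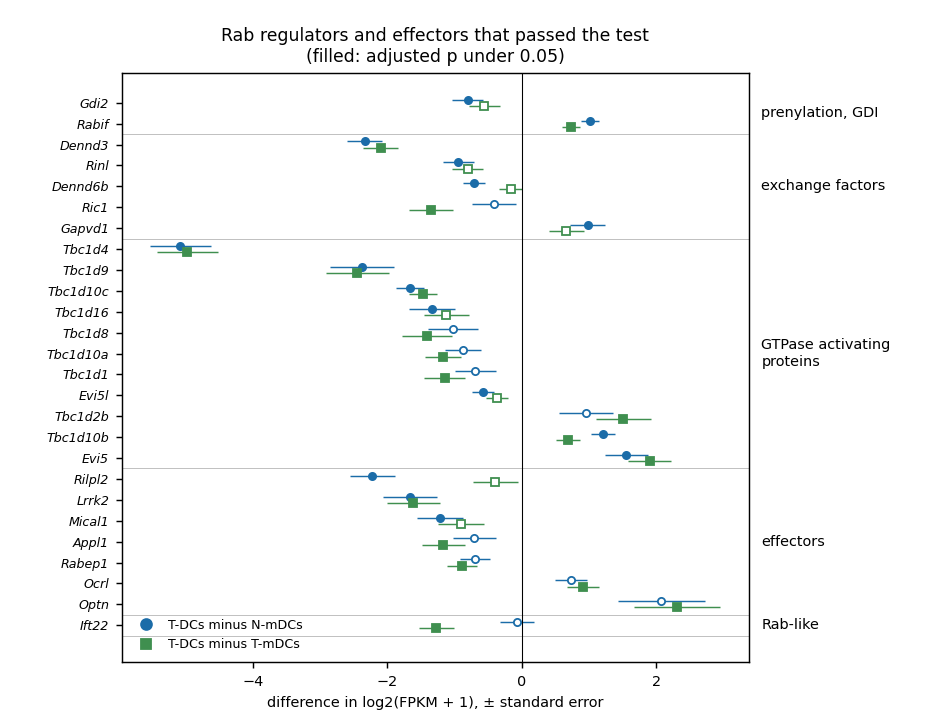
Differences in log2(FPKM + 1) of T-DCs from N-mDCs (blue circles) and from T-mDCs (green squares) for the regulators and effectors of Rabs that passed in at least 1 of these comparisons, with standard errors as bars and filled symbols for an adjusted p under 0.05. Tbc1d4 lies near -5 in both comparisons, and Rabif, Tbc1d10b and Evi5 lie above 0 in both.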

How the data were processed

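Bulk RNA-seq of sorted splenic DCs of mouse was measured in 9 samples, which the labels place in 3 groups of 3. The values are FPKM per gene as deposited by the authors, whose processing notes name the mm10 build. The paper names RNeasy extraction under its qRT-PCR methods and standard protocols for the sequencing. The aligner, counter, annotation and strand setting are not given in the sources used here. FPKM times gene length gave whole reads (tolerance 0.01), 15360815 to 18440913 per sample on genes, and this depth sets the counting error of low genes.

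Genes with at least 1 FPKM in at least 3 samples were tested on log2(FPKM + 1), which understates the change of low genes. One limma trend model (R 4.3.3, limma 3.58.1) was fitted to all 3 groups and all 12746 such genes, with Benjamini-Hochberg adjustment over all of them and a threshold of 0.05. The units of the table are not counts, so limma voom on the recovered reads was an alternative only. Named genes were all called members, a fixed set of well-known members and at most 4 genes per pathway list, plus exceptions named as such. The members and lists were chosen with earlier results of these data known. Library pairs with the same replicate number did not deviate together (correlations -0.475 to 0.269), and no block was used in the main fit. With 3 samples a group, these correlations cannot show whether T-DCs and T-mDCs came from the same mice. Paralog ratios were compared by exact two-sided permutation tests. Coding sequences came from GENCODE M21 (GRCm38), in which 66 of 69 members have the coordinates of the table. The scripts were tested on simulated data. Alternatives were other filters, pseudocount 0.1, scalings, models, a red cell covariate and leaving out each library. T-mDC samples 2 and 3 were also averaged into 1. T-DC sample 1 on its own was an alternative chosen after seeing the data.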

Additional observations from a re-analysis of the deposited data

How the results depend on the processing

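Calls are given as higher and lower Rab genes, first for T-DCs beside N-mDCs, then for T-DCs beside T-mDCs, for T-mDCs beside N-mDCs and for the test among the 3 groups, for which the values of the text are 2 and 7, 3 and 8, 0 and 0, and 11. The share of all tested genes called in the first 3 comparisons follows each in brackets, 16.4%, 14.2% and 2.21% for the values of the text. Without a filter they were 1 and 4, 1 and 5, 0 and 0, and 7 (5.16%, 4.43%, 0.963%). With at least 5 FPKM they were 2 and 4, 2 and 5, 0 and 0, and 7 (17.9%, 14.7%, 1.37%). Quantile normalization gave 0 and 7, 2 and 8, 0 and 0, and 10 (15.2%, 14.2%, 2.57%). With only the groups compared in the fit they were 0 and 5, 1 and 5, and 1 and 1 (8.39%, 8.13%, 6.67%). Array weights, whose estimate did not converge, gave 14 and 23, 18 and 24, 7 and 8, and 44 (66.6%, 77.9%, 30.1%). Limma voom gave 1 and 10, 2 and 11, 0 and 0, and 11 (15.9%, 15.1%, 1.36%). With T-mDC samples 2 and 3 as 1 sample they were 0 and 7, 0 and 3, 0 and 0, and 5 (10.9%, 4.24%, 0.18%). With the red cell covariate they were 0 and 3, 0 and 0, 0 and 0, and 2 (3.70%, 0%, 2.68%). With T-DC sample 1 alone they were 2 and 2, 2 and 3, 1 and 1, and 8 (5.85%, 5.81%, 6.66%). Leaving out 1 library gave 0 to 6 and 3 to 12, 0 to 5 and 3 to 13, 0 to 2 and 0 to 1, and 5 to 22, with 22 reached without T-DC sample 1, where 39.5%, 35.1% and 8.02% of all tested genes were called. The causes were not tested.

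With the replicate number as a block, calls were 0 and 5, 1 and 5, 0 and 0, and 5 (10.8%, 9.83%, 0.612%). Whether the numbers pair the samples is not given in the sources used here.

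The sign of some differences depended on the setting, and not all of these were near 0. In the main fit the differences from T-mDCs were 2.31 for Optn, a called one, -1.04 for Rab39 and -0.93 for Rab32. With the red cell covariate, the differences from N-mDCs were 0.13 for Rab1b, 0.72 for Rab32, 0.23 for Rab39, 0.11 for Rab43 and 0.21 for Rab7, and those from T-mDCs were 0.76 for Rab20, 0.72 for Rab27a, 0.17 for Rab32, 0.29 for Rab34, 0.071 for Rab39, 0.11 for Rab7, 0.11 for Rab8b and -0.075 for Optn. With T-DC sample 1 alone, they were 0.29 for Rab1b, 0.74 for Rab32, 0.29 for Rab39 and 0.23 for Rab7 from N-mDCs, and 0.96 for Rab20, 0.41 for Rab27a and 0.29 for Rab34 from T-mDCs. Quantile normalization gave -0.067 for Rab8b from N-mDCs and, from T-mDCs, -0.027 for Rab10, -0.27 for Rab1b, -0.0049 for Rab22a, 0.081 for Rab34, -0.041 for Rab38 and -0.12 for Rab5a. Array weights gave -0.39 for Rab38 from N-mDCs and, from T-mDCs, -0.035 for Rab1b, 0.16 for Rab20 and -0.59 for Rab38. Limma voom gave -0.090 for Rab1b, -0.046 for Rab22a, -0.10 for Rab38 and -0.12 for Rab5a from T-mDCs. Leaving out 1 library in turn also turned signs. From N-mDCs, the range was -0.15 to 0.14 for Rab1b (turned without N-mDC 2, T-DC 2 or T-DC 3), -0.49 to 0.32 for Rab32 (N-mDC 1, T-DC 3), -0.065 to 0.46 for Rab5a (N-mDC 2) and -0.17 to 0.23 for Rab8b (N-mDC 2, T-DC 2). From T-mDCs, it was -0.084 to 0.14 for Rab1b (T-DC 1), -0.48 to 0.48 for Rab20 (T-DC 2, T-DC 3, T-mDC 1), -0.42 to 0.14 for Rab27a (T-DC 3), -0.25 to 0.099 for Rab34 (T-DC 3, T-mDC 1), -0.14 to 0.38 for Rab38 (T-DC 1, T-DC 3) and -0.091 to 0.21 for Rab5a (T-DC 1, T-DC 2). The 20 called differences of Rab genes kept their sign in the comparison in which they were called. Limma voom moved the median difference of all genes between T-DCs and T-mDCs from 0.068 to -0.078.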

Other observations

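Among the Rab genes too low to test, Rab33a, a Golgi Rab of hemopoietic and neuronal cells, gave 6 reads in N-mDCs, 55 in T-DCs and 23 in T-mDCs over 3 samples each, at 0.0552 to 0.161, 0.669 to 1.25 and 0.313 to 0.412 FPKM. Rab39b gave 33, 5 and 61 reads in the same order. These were not tested.

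RefSeq promoter sequences (GRCm38.p6, around the transcription start) were at hand for 56 of the 69 genes. The letters CACGTG, an E-box that lysosomal regulators of the TFEB family are among those to bind, were found on either strand in 8 of these (14.3%). Of all genes with an entry, 8.09% hold it. The NF-κB motif was found in 0 of 56, where 1.63% of all genes with an entry hold it. The other motifs searched were GATA (3.57% of the 56, 12.7% of all genes with an entry), CRE (5.36% and 2.03%), AP-1 (5.36% and 8.97%), IRF (1.79% and 3.99%) and PU.1 (3.57% and 3.69%). These shares were not tested. A match describes letters and does not show that a factor binds.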
